A study of Schizosaccharomyces pombe with 21 samples.

Results

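The mRNAs of 9 heat shock chaperone genes were followed through 48 h of phosphate starvation in fission yeast (*Schizosaccharomyces pombe*), to see how the small heat shock proteins compare with the Hsp70 and Hsp90 chaperones. The 9 genes were taken by systematic ID from the 6988 genes listed: the small heat shock protein genes *hsp16* (SPBC3E7.02c) and *hsp9* (SPAP8A3.04c), *hsp104* (SPBC16D10.08c), *hsp90* (SPAC926.04c), the Hsp70 genes *ssa1* (SPAC13G7.02c), *ssa2* (SPCC1739.13) and *sks2* (SPBC1709.05), and the J protein genes *mas5* (SPBC1734.11) and *psi1* (SPCC830.07c). All 9 were measured at every time point. The product names in the reference annotation hold these gene names, and those of *mas5* and *psi1* name a DNAJ domain. They do not name the small heat shock and Hsp70 classes, which come from the choice of genes.

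The cells were of mating type h- and lacked 3 paralogous genes (*ecl1*Δ::hygMX, *ecl2*Δ::natMX, *ecl3*Δ::kanMX; strain ASY136). This holds for every sample, so the values show nothing about what the Ecl proteins do. Per the study's strain list, all its strains also carried mutant alleles of *leu1*, *ura4*, *his3* and *ade6*. Log-phase cells in YES, a rich yeast extract medium, gave the 0 h samples. The starved samples were taken from ePMGT(-PO4), a defined glutamate medium without phosphate, at 6 times after the transfer (4 h, 8 h, 12 h, 24 h, 36 h and 48 h). Each of the 7 times had 3 biological replicates, and no wild-type cells are among the samples. The loss of phosphate and the change of medium cannot be told apart here. Per the study's methods the cultures stayed at one growth temperature, so no heat shock was given.

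Values are the authors' means of normalised read counts (counts divided by library size factors), 1 mean per time point. The spread between replicates is not in these means, so no test was made and no difference is said to exceed it. Counting error alone was 0.122% to 0.974% of a mean for the 9 genes, at about 21100000 to 25900000 counted reads per library. "Higher" and "lower" describe ratios of 2 means, and a log2 ratio is that of a starved mean to the 0 h mean after adding 1 to both. A gene's share of the poly(A)+ RNA and the amount of RNA per cell cannot be told apart. As a check of the strain, *ecl3* had means of 0 to 3.67 over the time course, while *ecl1* (1472 to 4095) and *ecl2* (1934 to 3191) had reads at all times. Only the *ecl3* deletion is thus visible in the counts. Per the study's methods the cassettes stand in place of the open reading frames, while the annotated exons are longer: 820 bases with 243 coding for *ecl1*, 1509 with 255 for *ecl2* and 488 with 270 for *ecl3*. From which bases the *ecl1* and *ecl2* reads came cannot be seen in gene totals.

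Chaperones bind unfolded or aggregated proteins and help them fold. Small heat shock proteins of the alpha-crystallin type hold unfolding proteins without using ATP. The Hsp104 disaggregase pulls aggregates apart, and Hsp70 folds its clients in ATP-driven cycles that J proteins start. Hsp90 acts later, on clients such as kinases. In fission yeast, as in other eukaryotes, the transcription factor Hsf1 drives many of these genes by binding heat shock elements, which are inverted repeats of the unit GAA. The kinase Sty1 and the transcription factors Atf1 and Pcr1 serve a second, general stress pathway.

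The promoters were searched first. The genes were taken by ID and not by sequence. Because Hsf1 is known to drive many such genes, a high share with its element is no independent result. The window ran from 250 bases before to 50 bases after the annotated transcript start, in RefSeq sequence of assembly ASM294v3, and both strands were read. The head-to-head element GAANNTTC was found in 6 of the 9 genes, against 11.1% of 5113 protein-coding genes. The tail-to-tail element TTCNNGAA was found in 2, *ssa1* and *ssa2*, against 10.2%, and at the closer site it overlapped GAANNTTC in both genes. Either form was present in 19.9% of promoters. The windows around the element nearest the start are shown for 5 of these 6 genes. *mas5*, whose element lies farther out, is not shown. Whether the elements bear on the mRNA levels was not tested. The distances are similar for *ssa1*, *ssa2*, *hsp90* and *psi1* (57 to 63 bases), while *hsp16* has its element at 93 bases. Capitals mark the matched element.
hsp16: aacgtttacgaGAAAATTCgagtcatcgta
ssa1: agggttggtGAAGGTTCGAGAAtggacaaa
ssa2: gggttttggGAAACTTCGAGAAccgtagcc
hsp90: ttagggttttgGAATGTTCgagttgctttg
psi1: cgcttatactcGAAGTTTCtagcattacat

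These stretches occur once in the assembly. They lie upstream of the transcripts at chrII:2661067-2661096 (minus strand) for *hsp16*, chrI:2298002-2298031 (minus strand) for *ssa1*, chrIII:2056975-2057004 (plus strand) for *ssa2*, chrI:3891178-3891207 (minus strand) for *hsp90* and chrIII:2195579-2195608 (minus strand) for *psi1*. The capitals begin 93 bases before the transcript start of *hsp16*, 58 before *ssa1*, 59 before *ssa2*, 57 before *hsp90* and 63 before *psi1*. *ssa1* and *ssa2* thus both hold 3 alternating units in 13 bases at nearly the same distance. *psi1* has a second GAANNTTC 102 bases before its start, *ssa1* a second TTCNNGAA at 89 bases, and *mas5* a single GAANNTTC farther out, at 224 bases. No match was found in the windows of *hsp9*, *hsp104* or *sks2*, which says only that these letters are not there. The Atf1-Pcr1 core TGACGT was found before *ssa2* alone, against 5.91% of promoters. The 12-base consensus of Pho7, the activator of phosphate acquisition genes, was found before 0 of the 9, against 0.743%. At so low a share, 0 among 9 genes says little about Pho7. The shorter core that the paper looked for, and sites outside the window, were not searched.

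**Figure D1:**
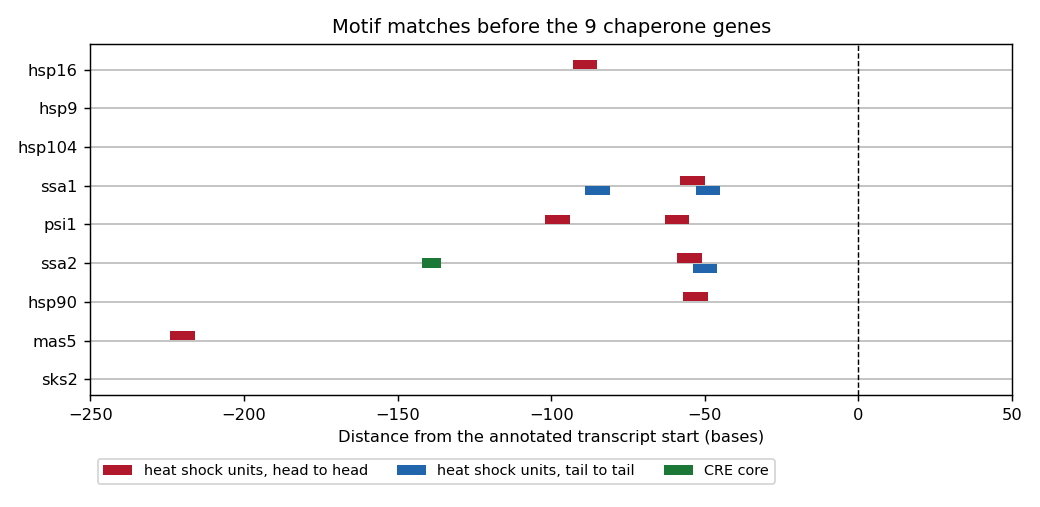
Matches to the heat shock units and the CRE core (Atf1-Pcr1 core) before the 9 genes, by distance in bases from the annotated transcript start (dashed line). Head-to-head matches of *ssa1*, *ssa2*, *hsp90* and *psi1* begin 57 to 63 bases before the start, and that of *hsp16* at 93 bases.

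In phosphate-starved cells 4 of the 9 genes, *hsp16*, *hsp9*, *hsp104* and *ssa1*, were at least 2-fold higher than at 0 h at all 6 times, and *psi1* was so at 4 h only. *sks2* and *mas5* were at least 2-fold lower at all 6 times, and *hsp90* at 8, 12, 24 and 48 h. *ssa2* stayed within 2-fold throughout. At least 2-fold higher were thus 5 of 9 genes (55.6%) at 4 h and 4 of 9 (44.4%) at each later time. Of the 6339 genes with a mean of at least 10 over the time course, 15.6% were 2-fold higher at 4 h, 23.6% at 8 h, 23.5% at 12 h, 25.8% at 24 h, 23.9% at 36 h and 25.8% at 48 h. At least 2-fold lower were 2 of 9 (22.2%) at 4 h and 36 h and 3 of 9 (33.3%) at the other times. The share lower among the 6339 genes was 13.3% at 4 h, 16.2% at 8 h, 16.1% at 12 h, 17.6% at 24 h, 17.9% at 36 h and 18.9% at 48 h. The median log2 ratio of the 9 genes was 1.43 at 4 h and 0.06 at 48 h, beside 0.02 and 0.01 for all genes. Members thus lay on both sides of 0 h at every time. The median of all genes was close to 0, so lying on both sides is not particular to these 9 genes. The 2 of 9 lower at 4 h and 36 h were not far from the 13.3% and 17.9% of the 6339 genes.

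**Figure D2:**
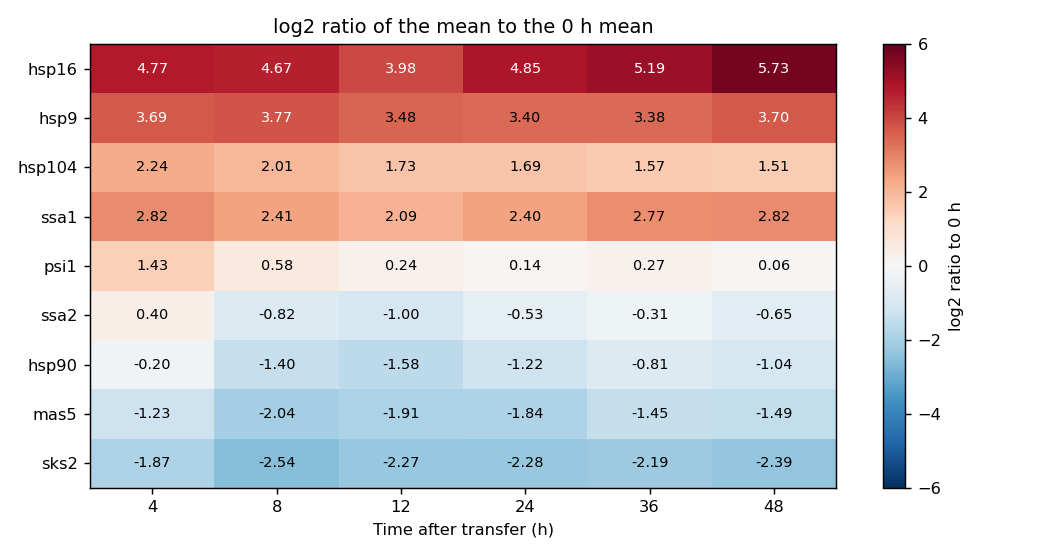
log2 ratio of each starved mean to the 0 h mean for the 9 genes (rows) at 6 times (columns), red for higher and blue for lower than 0 h. The values run between 5.73 for *hsp16* at 48 h and −2.54 for *sks2* at 8 h.

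*hsp16* encodes a small heat shock protein of the alpha-crystallin type. It had mean normalised counts of 4501 at 0 h, 122545 at 4 h, 114412 at 8 h, 70953 at 12 h, 129654 at 24 h, 164786 at 36 h and 238997 at 48 h. The course had an early high, a dip at 12 h and a late climb to its highest value. The log2 ratio was 4.77 at 4 h, 3.98 at 12 h and 5.73 at 48 h, a mean 53.1-fold higher at 48 h than at 0 h. Of the 5016 protein-coding genes with a mean of at least 10, 23 had a larger log2 ratio at 4 h and 36 at 48 h. *hsp16* took 1.06% of all normalised counts at 48 h, against 0.0166% at 0 h.

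*hsp9* encodes a small stress protein related to Hsp12 of budding yeast rather than to the alpha-crystallins. Its means were 8702 at 0 h, 112176 at 4 h, 118615 at 8 h, 97067 at 12 h, 91895 at 24 h, 90381 at 36 h and 112993 at 48 h. It reached its high level by 4 h and then stayed level: the 6 log2 ratios lay between 3.38 and 3.77, a range of 0.39, where those of *hsp16* spanned 1.75. The *hsp9* transcript overlaps the annotated non-coding RNA SPNCRNA.1071 on the same strand over 64 bases. That RNA had means of 26.9 to 91.8, far below those of *hsp9*.

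*hsp104* encodes the disaggregase that works with Hsp70. Its means were 3686 at 0 h, 17451 at 4 h, 14819 at 8 h, 12245 at 12 h, 11893 at 24 h, 10947 at 36 h and 10518 at 48 h. It was highest at 4 h (log2 ratio 2.24) and lower at each later sampling than at the one before, but at 48 h was still 2.85-fold above 0 h. The last of these steps, −0.06 on the log2 scale, became 0.01 under either other scaling. Between 36 and 48 h *hsp16* was higher by 0.54.

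**Figure D3:**
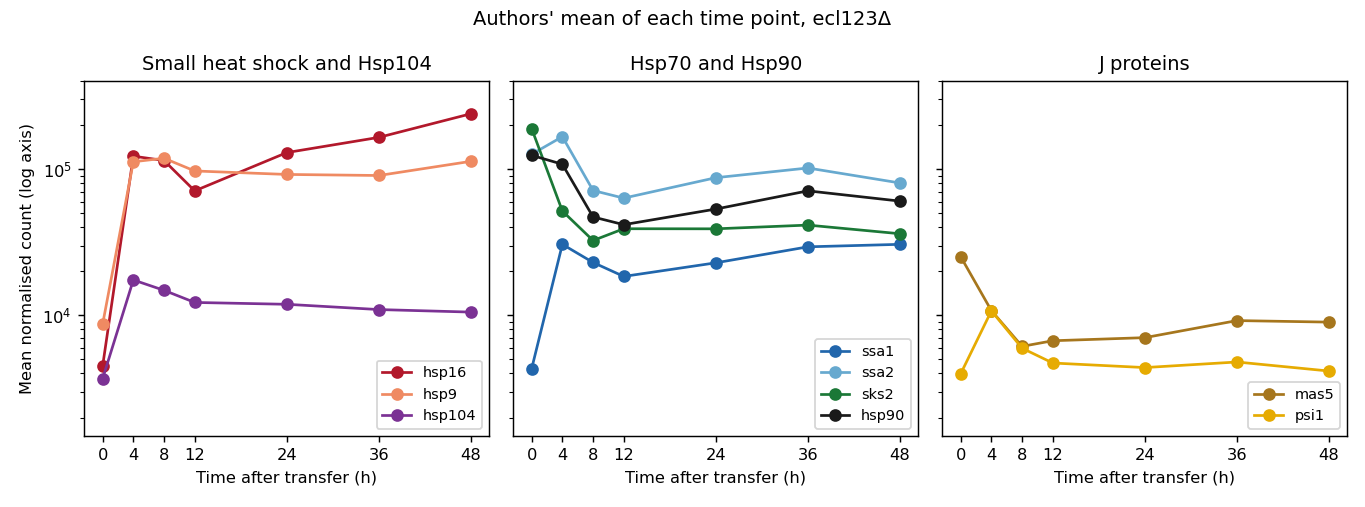
Mean normalised count (log axis) of each gene at the 7 time points (hours of starvation), in panels for small heat shock proteins with Hsp104, Hsp70 with Hsp90, and J proteins. Points are the authors' means of a time point, with no error bars. *hsp16* ends at 238997, while *hsp104* has 10518 at 48 h, against 17451 at 4 h.

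The Hsp70 genes went 3 ways. *ssa1* and *ssa2* encode cytosolic Hsp70 proteins, and *sks2* an Hsp70 that sits on ribosomes and meets nascent chains. *ssa1* had means of 4319 at 0 h, 30573 at 4 h, 22982 at 8 h, 18445 at 12 h, 22854 at 24 h, 29401 at 36 h and 30572 at 48 h. It was between 4.27-fold (12 h) and 7.08-fold (4 h and 48 h) higher than at 0 h, with the same dip at 12 h as *hsp16*. *ssa2* had means of 126259 at 0 h, 166634 at 4 h, 71361 at 8 h, 63293 at 12 h, 87308 at 24 h, 101717 at 36 h and 80326 at 48 h. Its log2 ratio was 0.40 at 4 h and negative afterwards, with −0.31 at 36 h as the value nearest to 0 h. At 12 h, its lowest time, its mean was 1.99 times smaller than at 0 h, just inside the 2-fold limit.

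The difference between the 2 cytosolic paralogues in log2 ratio, *ssa1* minus *ssa2*, was 2.42 at 4 h, 3.23 at 8 h, 3.09 at 12 h, 2.94 at 24 h, 3.08 at 36 h and 3.48 at 48 h. Per kilobase of annotated exon, *ssa1* made up 26.8% of the pair's mean counts at 48 h, against 3.18% at 0 h. *ssa2* was still 2.74 times as high as *ssa1* per kilobase at 48 h, against 30.5 times at 0 h. The summed mean of the pair per kilobase was 56970 at 0 h, 85617 at 4 h, 35385 at 12 h and 47911 at 48 h. Its direction at 48 h depends on the scaling: with the means scaled to the same sum it was 57504 at 48 h, just above 0 h. From 4 to 36 h the means of both genes moved in the same direction in each interval: both were lower at 8 h than at 4 h and at 12 h than at 8 h, and higher at 24 h than at 12 h and at 36 h than at 24 h. Only between 36 and 48 h did they part, with log2 steps of 0.06 for *ssa1* and −0.34 for *ssa2*. The coding sequences are 82.6% identical, but only 6 of the 2335 windows of 51 bases (the read length) in the *ssa1* transcript, and 6 of 2239 in *ssa2*, occur elsewhere in the genome. Reads shared between the 2 genes can therefore touch only 0.257% and 0.268% of such positions by exact match.

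*sks2* had means of 189097 at 0 h, 51657 at 4 h, 32462 at 8 h, 39086 at 12 h, 39035 at 24 h, 41394 at 36 h and 36120 at 48 h. It took 0.160% of all normalised counts at 48 h, against 0.696% at 0 h. The log2 ratio was −1.87 at 4 h, −2.54 at 8 h and between −2.19 and −2.39 later, so the mean at 48 h was 5.24 times smaller than at 0 h. Beside it stand the 139 cytosolic ribosomal protein genes, taken by their symbols after the values were known: their median log2 ratio was −2.52 at 4 h, −2.87 at 8 h, −2.15 at 12 h, −1.28 at 24 h, −1.36 at 36 h and −1.12 at 48 h. At 4 h, 119 of these 139 genes lay below *sks2*, and at 48 h 2 did. The mRNA for this chaperone of the ribosome thus kept a low level to 48 h while the median ribosomal protein gene stood nearer to its 0 h level at 48 h than at 4 h.

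*hsp90* had means of 124218 at 0 h, 107879 at 4 h, 47058 at 8 h, 41663 at 12 h, 53289 at 24 h, 70968 at 36 h and 60379 at 48 h. It was near its 0 h level at 4 h (log2 ratio −0.20) and lowest at 12 h (−1.58), with −0.81 at 36 h and −1.04 at 48 h. With the means of each time scaled to the same sum, *hsp90* was no longer 2-fold lower at 8, 24 and 48 h (log2 ratios −0.98, −0.94 and −0.78), though still lower than at 0 h. Between 4 and 8 h *hsp90* and *ssa2* took similar steps, −1.20 and −1.22 on the log2 scale, and these were the only genes of the 9 past 2-fold in that step. With the means scaled to the same sum the step of *hsp90* was −0.98, within 2-fold, and that of *ssa2* passed the limit narrowly.

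Small heat shock protein genes were set against Hsp70 and Hsp90 genes by the mean log2 ratio of each group. The first group follows the choice of genes: *hsp16* is of the alpha-crystallin type and *hsp9* is not. Its mean therefore describes these 2 genes and not a protein class. For *hsp16* and *hsp9* this mean was 4.23 at 4 h, 4.22 at 8 h, 3.73 at 12 h, 4.12 at 24 h, 4.29 at 36 h and 4.71 at 48 h. For *ssa1*, *ssa2*, *sks2* and *hsp90* it was 0.29, −0.59, −0.69, −0.41, −0.14 and −0.31 at the same times. The difference was 3.94, 4.81, 4.42, 4.53, 4.42 and 5.03. These 2 and 4 genes did not overlap at any time: the lower of the small heat shock genes stood at 3.69 at 4 h and 3.70 at 48 h, above the highest of the others, *ssa1*, at 2.82 at both times. Of 5016 protein-coding genes, 69 at 4 h and 106 at 48 h had a larger log2 ratio than *hsp9*, and 121 and 191 than *ssa1*. Because these few genes were chosen with earlier results of these data known, the non-overlap is a description and no independent result. The non-overlap does not extend to the small heat shock class: *hsp20*, a further small heat shock gene outside the 9, had log2 ratios of 0.43 to 1.10, below *ssa1* at all 6 times.

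Levels between genes were compared per kilobase of exon. At 48 h the order, in mean counts per kilobase, was *hsp16* (279856), *hsp9* (156935), *ssa2* (35092), *hsp90* (23384), *sks2* (17070), *ssa1* (12819), *mas5* (4553), *hsp104* (3500) and *psi1* (2071). At 0 h it was *sks2* (89365), *ssa2* (55159), *hsp90* (48109), *mas5* (12757), *hsp9* (12086), *hsp16* (5271), *psi1* (1984), *ssa1* (1811) and *hsp104* (1227). Whether neighbours in these orders differ beyond their spread could not be judged from the means. *hsp16* and *hsp9* together made up 81.6% of the 9 genes' summed level per kilobase at 48 h, against 7.62% at 0 h. The Hsp70 and Hsp90 genes made up 16.5% against 85.4%. *hsp16* passed *hsp9* between 12 and 24 h, at 1.19 times *hsp9* per kilobase at 24 h, against 0.616 times at 12 h. The 9 genes together took 2.58% of all normalised counts at 48 h, against 1.80% at 0 h, with 2.66% at 4 h and 1.70% at 12 h between them.

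**Figure D4:**
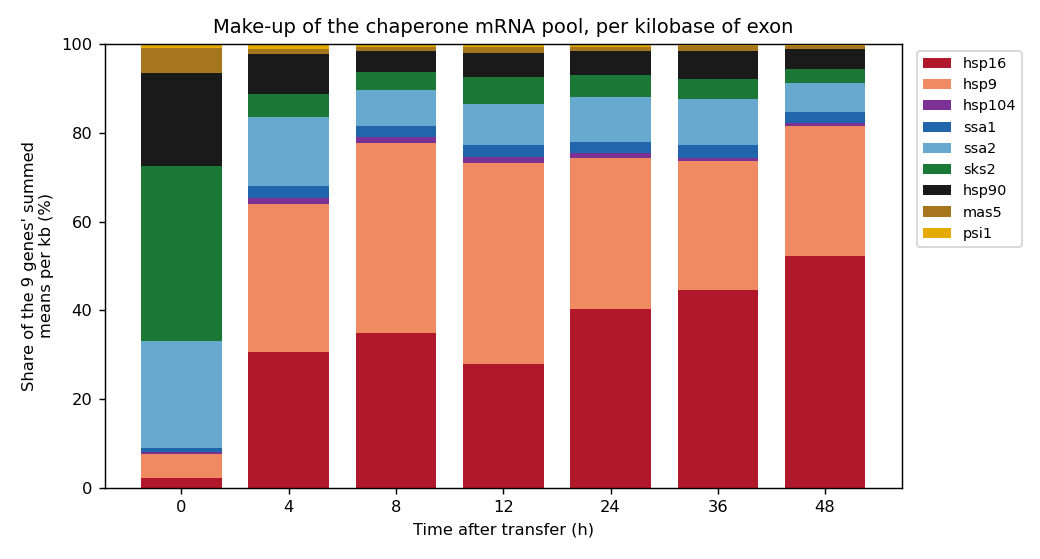
Share (%) of each gene in the summed mean counts per kilobase of exon of the 9 chaperone genes, at 7 time points. The 2 red and orange segments (*hsp16* and *hsp9*) cover 7.62% at 0 h, 64.0% at 4 h and 81.6% at 48 h.

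The J protein genes differed from each other as well. Mas5 corresponds to Ydj1 of budding yeast and is known, with Ssa2, to restrain Hsf1 in fission yeast, and Psi1 corresponds to Sis1. *mas5* had means of 25169 at 0 h, 10762 at 4 h, 6132 at 8 h, 6700 at 12 h, 7034 at 24 h, 9203 at 36 h and 8983 at 48 h. *psi1* had 3984 at 0 h, 10727 at 4 h, 5957 at 8 h, 4717 at 12 h, 4392 at 24 h, 4794 at 36 h and 4158 at 48 h. *psi1* showed a single peak at 4 h, 2.69-fold above 0 h, and was back within 1.04-fold at 48 h, whereas *mas5* was lowest at 8 h and 2.80 times lower at 48 h than at 0 h. Per kilobase, *mas5* was 1.02 times as high as *psi1* at 4 h, 2.20 times at 48 h and 6.43 times at 0 h.

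By sampling interval, most of the change came first. Between 0 and 4 h 7 of the 9 genes moved at least 2-fold, and between 4 and 8 h 8 of 9 were lower and 2 by at least 2-fold. The median step from 4 to 8 h was −0.67 for the 9 genes and 0.008 for all genes. The share of all genes that moved in each direction was not counted in this or any other interval. The counts of members higher or lower by interval therefore have no background beside them. In the later intervals 0 moved 2-fold. Among the 6339 genes 28.9% moved at least 2-fold in the first interval, 11.7% in the second and 1.12% to 3.60% later. The 0 in the later intervals was thus near the background, and the early timing was also that of the 6339 genes. The gene higher at 8 h than at 4 h was *hsp9*, by 0.08 on the log2 scale. With the means scaled to the same sum, or centred on the median protein-coding gene, *hsp16* was higher at 8 h too, by 0.12 or 0.04, which leaves 7 of 9 lower. Between 36 and 48 h 6 of the 9 were lower at the later time, but 4 under either scaling. The median step in this interval was −0.06, beside −0.005 for all genes. Between 24 and 36 h 7 of the 9 were higher at the later time, with a median step of 0.22, beside −0.003 for all genes.

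Other chaperone genes were taken from a list by symbol, of which 31 were matched, and few of them stood high. At 4 h 0 of 31 were at least 2-fold higher than at 0 h, beside 15.6% of the 6339 genes, and 6 of 31 were lower, not far from the 13.3% of those genes. Their median log2 ratio at 4 h was −0.51. At 48 h 1 of 31 was higher, beside 25.8% of the 6339 genes, and 17 of 31 lower, beside 18.9%, with a median of −1.08. The 1 gene was *hsp20*, the other small heat shock gene of the list, at 0.95 at 4 h and 1.10 at 48 h. Of the 8 genes of CCT, the cytosolic chaperonin that folds actin and tubulin, 3 were 2-fold lower at 4 h and 7 at 48 h. By mean log2 ratio *cct8* was the lowest (−1.29 at 4 h and −1.47 at 48 h) and *cct6* the highest (−0.77 and −0.74), while at 48 h itself *cct4*, named after its values were seen, was the lowest, at −1.59. Their median was −0.95 at 4 h and −1.29 at 48 h.

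Most partner genes of Hsp70 and Hsp90 were within 2-fold of 0 h at 4 h. Of 4 exchange factor genes 1 was 2-fold lower at 4 h and 2 at 48 h, beside 13.3% and 18.9% of the 6339 genes. *pss1*, which encodes the Hsp110 protein, stood at −1.10 at 4 h and −1.89 at 48 h, and *fes1* at 0.30 and −0.02. Of 6 Hsp90 cochaperone genes 0 were 2-fold lower at 4 h, 2 at each time from 8 to 36 h and 1, *sti1*, at 48 h (−1.29). Their medians were −0.03 at 4 h and −0.67 at 48 h. From 8 to 36 h 16.1% to 17.9% of the 6339 genes were lower. The 1 of 6 at 48 h was near the background. *cns1* stood at −0.99 at 4 h and −0.91 at 48 h but was at least 2-fold lower at the times between, with −1.38 at 8 h and −1.06 at 36 h. *git7* stood at 0.44 at 4 h and 0.39 at 48 h. Of the 2 other J protein genes, *zuo1*, which encodes zuotin, the J partner at the ribosome, stood at −2.09 at 4 h and −2.53 at 48 h, close to *sks2* at −1.87 and −2.39. *xdj1* stood at −0.70 and −0.58, but was at least 2-fold lower at 8 h (−1.14) and 12 h (−1.02).

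Of 4 ER chaperone genes 0 were 2-fold lower at 4 h, 2 at 12 h and 4 at 48 h, and their median was −1.44 at 48 h, against −0.47 at 4 h. *bip1*, the ER Hsp70 gene, was lower at each later time, with −0.51 at 4 h and −1.89 at 48 h, and the calnexin gene *cnx1* stood at 0.38 and −1.08. Of 6 mitochondrial chaperone genes 1 was 2-fold lower at 4 h, 5 at 12 h and 2 at 48 h. The shares of the 6339 genes lower at these times were 13.3%, 16.1% and 18.9%, so that 1 of 6 at 4 h was near the background. *ssc1*, the mitochondrial Hsp70 gene, stood at −0.67 at 4 h and −1.80 at 48 h, while *hsp78*, for the mitochondrial relative of Hsp104, stood at 0.88 and 0.59. *hsp78* was thus within 2-fold of 0 h at these times, where *hsp104* was 4.73-fold and 2.85-fold higher.

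**Figure D5:**
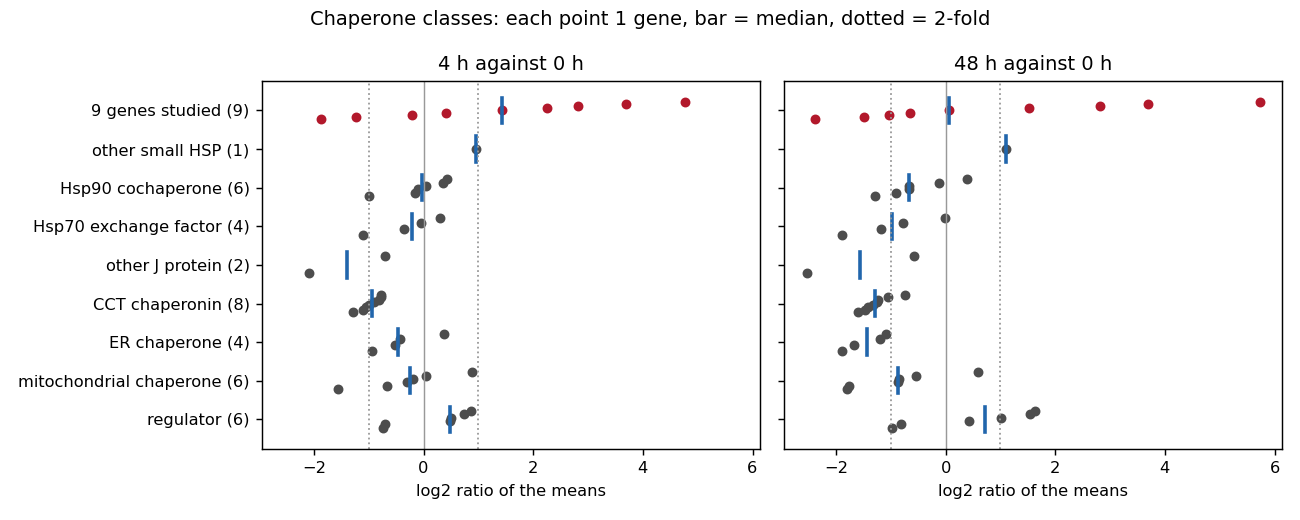
log2 ratio to 0 h of the 9 chaperone genes (red) and of other chaperone classes and stress regulators (grey) at 4 h (left) and 48 h (right). Each point is 1 gene, the blue bar the class median and the dotted lines 2-fold. The 8 CCT genes lie between −1.29 and −0.77 at 4 h.

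Of the regulators, *hsf1* had log2 ratios of 0.49 at 4 h, 0.44 at 8 h, 0.80 at 12 h, 0.97 at 24 h, 1.65 at 36 h and 1.53 at 48 h, so that its mRNA was higher late than early. *pap1*, for an oxidative stress factor, ran similarly, at 0.86 at 4 h and 1.63 at 48 h. *atf1* stood at 0.75 at 4 h and 1.21 at 36 h. At 4 and 48 h its partner *pcr1* stood at 0.50 and 0.42, the kinase gene *sty1* at −0.70 and −0.81 and *prr1*, for another stress factor, at −0.75 and −0.97. These are mRNA levels, and the activity of the proteins was not measured.

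The genes most like 4 of the chaperones were found among 4894 other protein-coding genes with a mean of at least 100, by the root mean square (RMS) difference of the 6 log2 ratios. Nearest to *hsp16* were *cao2*, which encodes an amine oxidase-like protein, at 0.42, *hsp3101* (a glyoxylase III) at 0.49 and SPAC11D3.01c (a Con-6 family protein) at 0.54. Nearest to *hsp104* were *rep1* at 0.18, *isp5* at 0.19 and *sst1* at 0.20. Nearest to *hsp90* were *shm1* (serine hydroxymethyltransferase) at 0.15, *sti1* (an Hsp90 cochaperone) at 0.17 and *lys9* at 0.19, and *sti1* had log2 ratios of −0.11 at 4 h, −1.51 at 12 h and −1.29 at 48 h. Nearest to *sks2* were *rhs1* at 0.06, *utp4* (a U3 snoRNP protein) at 0.13 and *tif301* (eIF3a) at 0.13. The nearest genes to *hsp16* were thus farther from it than the nearest genes were from the other 3.

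The annotation places RNAs on the opposite strand over 7 of the 9 genes. No source used here gives the strand option of HTSeq, so reads from such a pair cannot be assumed to be separate. For *ssa1* the antisense RNA SPNCRNA.811 overlaps 145 bases and had means of 16.5 to 71.2, small beside those of *ssa1*. A second antisense RNA, SPNCRNA.3030, covers 1934 bases of *ssa1*, and SPNCRNA.6202 covers 1477 bases of *hsp104*. Neither has a value in the tables used, so the reads they may add are not known. *alg12* overlaps *mas5* by 32 bases on the opposite strand and had means of 1548 to 2639, and *ppe1* overlaps *ssa2* by 27 bases on the same strand, with means of 3162 to 4383. The part of these overlaps in the values was not tested. *hsp16* and *hsp90* have no annotated overlap.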

How the data were processed

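Per the labels and the study's methods, poly(A)+ libraries from a stranded kit were sequenced in paired-end mode (51 bases) and mapped to ASM294v2 by HISAT2 2.1.0. SAMtools handled the alignments, and HTSeq 0.10.0 counted reads in PomBase exons. The authors deposited, for each starvation time against 0 h, the mean normalised count of both time points (a signal: counts divided by DESeq2 size factors and averaged over 3 libraries). The tables also hold the authors' own comparison (fold changes, standard errors, p-values), which was not used, and a mean over all libraries of their fit, also not used. Samples took their time point from their titles.

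From the means, log2 ratios to 0 h were computed with a pseudocount of 1 (Python 3.11.15, pandas 2.3.3). The arithmetic was checked on simulated counts with counting error only and no changes near the 2-fold limit. That check says nothing about genes close to the limit. No test was possible from means without spread. Genes with a mean of at least 10 over the 7 time points (6339 of 6988) formed the background. Single-read steps among the low means gave size factors of 0.804 to 1.32, with 100% of means below 2 equal to sums of whole reads (tolerance 1e-06), and from these the depth and the counting error, which covers counting only. Names, exon lengths and sequence came from RefSeq ASM294v3, which is not the counting build: 6836 IDs matched by tag, 12 by synonym and 140 did not. Coordinates are those of printed stretches matched to that assembly.

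The 9 genes and the lists were chosen with earlier results of these data known. All 9 are named. Of the listed other chaperones (46 of 51 symbols matched, the 9 and 6 regulators included), the highest and lowest of each class by mean log2 ratio are named. All regulators and the 3 genes nearest to *hsp16*, *hsp104*, *hsp90* and *sks2* are named too. Alternatives were another scaling (2 forms), pseudocount, fold limit, group make-up and no filter.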

Additional observations from a re-analysis of the deposited data

How the results depend on the processing

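No paired analysis was possible because the columns are means over replicates and carry no replicate number, and for the same reason no replicate could be left out. The pseudocount (10, or none) moved the 54 log2 ratios by at most 0.003, and no filter on low means left all 12 background counts within 1.5 times. Scaling the means to the same sum shifted every log2 ratio upward, by 0.20, 0.42, 0.38, 0.28, 0.20 and 0.26 in order of time. Centring on the median protein-coding gene shifted them by up to 0.22. Under either scaling 0 of the 54 log2 ratios changed sign. Of the 54, 3 crossed the 2-fold limit under the first (*hsp90* at 8, 24 and 48 h) and 1 under the second (*hsp90* at 48 h). Among steps between samplings, the directions named in the text for *hsp16* (4 to 8 h) and *hsp104* (36 to 48 h) turned under both. With a 3-fold limit 1 gene was lower at 4 h, 1 at 36 h and 1 at 48 h, in place of 2, 2 and 3, and the other counts stayed within 1.5 times. The difference between small heat shock genes and Hsp70 with Hsp90 was 4.48, 5.26, 4.67, 5.25, 5.33 and 6.04 at the 6 times with *hsp16* alone. Without *sks2* it was 3.22, 4.16, 3.89, 3.91, 3.74 and 4.34, because *sks2* is the lowest of its group. Counting error was at most 0.974% of each mean, the means carry no spread between replicates, and the authors' own standard errors were not used.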
